A study of Mus musculus with 24 samples.

Results

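Smooth muscle contractile genes are described here across mouse intestinal organoids and whole intestine. The 10 genes are Acta2, Actg2, Myh11, Cnn1, Des, Tagln, Myl9, Lmod1, Synpo2 and Smtn, out of 30702 genes measured. Each was read from the array probe set that names that gene alone, and each had 1 such probe set. The study hybridised RNA to 24 Affymetrix arrays of 1 colour, with 6 groups of 4 arrays each. The groups were organoids from adult intestine after 30 and after 3 days of culture, organoids from fetal intestine of stage E19 after 30 and after 3 days, intestinal tissue of adults, and intestinal tissue of P0, or newborn, mice. Organoids are cultures of intestinal epithelium, grown here in ENR, a medium that holds EGF, Noggin and R-spondin. The labels state no strain, genotype, sex, adult age or region of the intestine. The fetal organoids came from E19 and not from P0 intestine, so their nearest tissue group differs in stage as well as in culture.

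The wall of the intestine carries layers of smooth muscle outside the epithelium, and thinner strands of it run beneath the epithelium and into the villi. Smooth muscle shortens when calcium leads to phosphorylation of the myosin light chain, so that myosin pulls on actin filaments that are anchored at dense bodies and at the cell membrane. Many genes of this apparatus are switched on by serum response factor together with myocardin, which act at a short promoter element named the CArG box. Acta2 is also made by myofibroblasts, pericytes and the muscle of blood vessels, and Actg2 is the actin typical of visceral muscle.

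The promoters of the genes are shown where a CArG box, in which a pair of C and a pair of G enclose a core of 6 bases that are each A or T, was found in the 250 bases before the start of the gene. RefSeq promoter entries of the build GRCm38.p6 matched 7 of the 10 genes, and Actg2, Myh11 and Tagln were not matched. Both strands were searched, and the element was also searched with up to 1 G or C allowed in the core. Myl9 was the 1 gene of the 7 with an exact match, and Acta2 and Myl9 were the 2 with a match of the looser form. Of all 32851 promoter entries, 1.47% held an exact match and 8.59% the looser form. The Acta2 window is chr19:34255374-34255623 on the minus strand and the Myl9 window is chr2:156775214-156775463 on the plus strand, each printed 5′ to 3′ along the gene's strand with the matches in capitals.
Acta2: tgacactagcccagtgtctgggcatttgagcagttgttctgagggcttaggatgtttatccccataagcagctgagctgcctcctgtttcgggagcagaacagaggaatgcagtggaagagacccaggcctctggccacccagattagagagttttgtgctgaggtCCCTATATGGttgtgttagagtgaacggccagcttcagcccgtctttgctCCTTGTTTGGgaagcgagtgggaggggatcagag
Myl9: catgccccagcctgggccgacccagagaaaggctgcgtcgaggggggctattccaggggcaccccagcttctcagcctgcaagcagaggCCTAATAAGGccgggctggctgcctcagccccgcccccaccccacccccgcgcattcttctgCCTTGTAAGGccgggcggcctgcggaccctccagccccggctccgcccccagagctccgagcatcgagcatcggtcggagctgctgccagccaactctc
In Acta2 the matches CCCTATATGG and CCTTGTTTGG began 84 and 34 bases before the start. In Myl9 the exact match CCTAATAAGG began 161 bases before the start and the looser match CCTTGTAAGG began 99 bases before it. A match describes these letters and is not a site shown to be bound.

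Levels are given as the deposited log2 signal, where a difference of 1 is a 2-fold change. The median of all probe sets lay between 4.20 and 4.45 on the arrays, and that of the probe sets for negative controls, used here as an array's background, between 3.84 and 4.61. Of the 10 genes, 9 lay above that background on every array, and Synpo2 lay at or below it on all 4 adult day 30 arrays, all 4 fetal day 30 arrays and 1 adult day 3 array. A level cannot be set against that of another gene, since probes differ in brightness. The labels do not say whether arrays are separate animals or cultures, so p-values measure the spread between these arrays, which may be technical. With 4 arrays a group, their number limits how precise each value is. Differences are limma log2 differences of group means ± SE with an adjusted p over all 30702 genes, and a gene is called at an adjusted p under 0.05. In RNA of whole tissue or culture, fewer muscle cells and less RNA per cell cannot be told apart.

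Several arrays stood apart from their groups. Adult tissue array 4 had the lowest level of its group for 9 of the 10 genes, with a mean deviation of -0.57 from the group means. Adult organoid day 3 array 1 carried the fibroblast genes at a level near that of tissue, as described further on. Without it, 9 genes were still called between adult day 3 organoids and adult intestine and 3 between adult and fetal day 3 organoids. Of all genes 33.5% and 22.2% were then called in either direction. Fetal day 3 arrays 2 and 3 were known from earlier results to stand apart, and the counts of contractile genes and of list genes that rest on them are given with and without them.

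Whole intestine showed the genes at their highest levels, and every gene was highest at P0. Acta2, the smooth muscle alpha-actin, measured 9.42, 9.05, 9.61 and 8.31 in adult intestine, against 11.09, 10.99, 11.26 and 10.87 in P0 intestine. Actg2, the visceral gamma-actin that forms the thin filaments of gut muscle, measured 7.21, 6.84, 7.33 and 6.17 in adult intestine, against 9.13, 9.01, 9.31 and 9.12 in P0 intestine. All adult arrays lay below all P0 arrays for both actins. The difference was -1.96 ± 0.19 for Acta2 (3.88-fold lower, adjusted p = 2.6e-08) and -2.25 ± 0.15 for Actg2 (4.77-fold lower, adjusted p = 8.2e-11). These are close relatives in sequence, and whether their probes tell them apart was not tested.

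**Figure D1:**
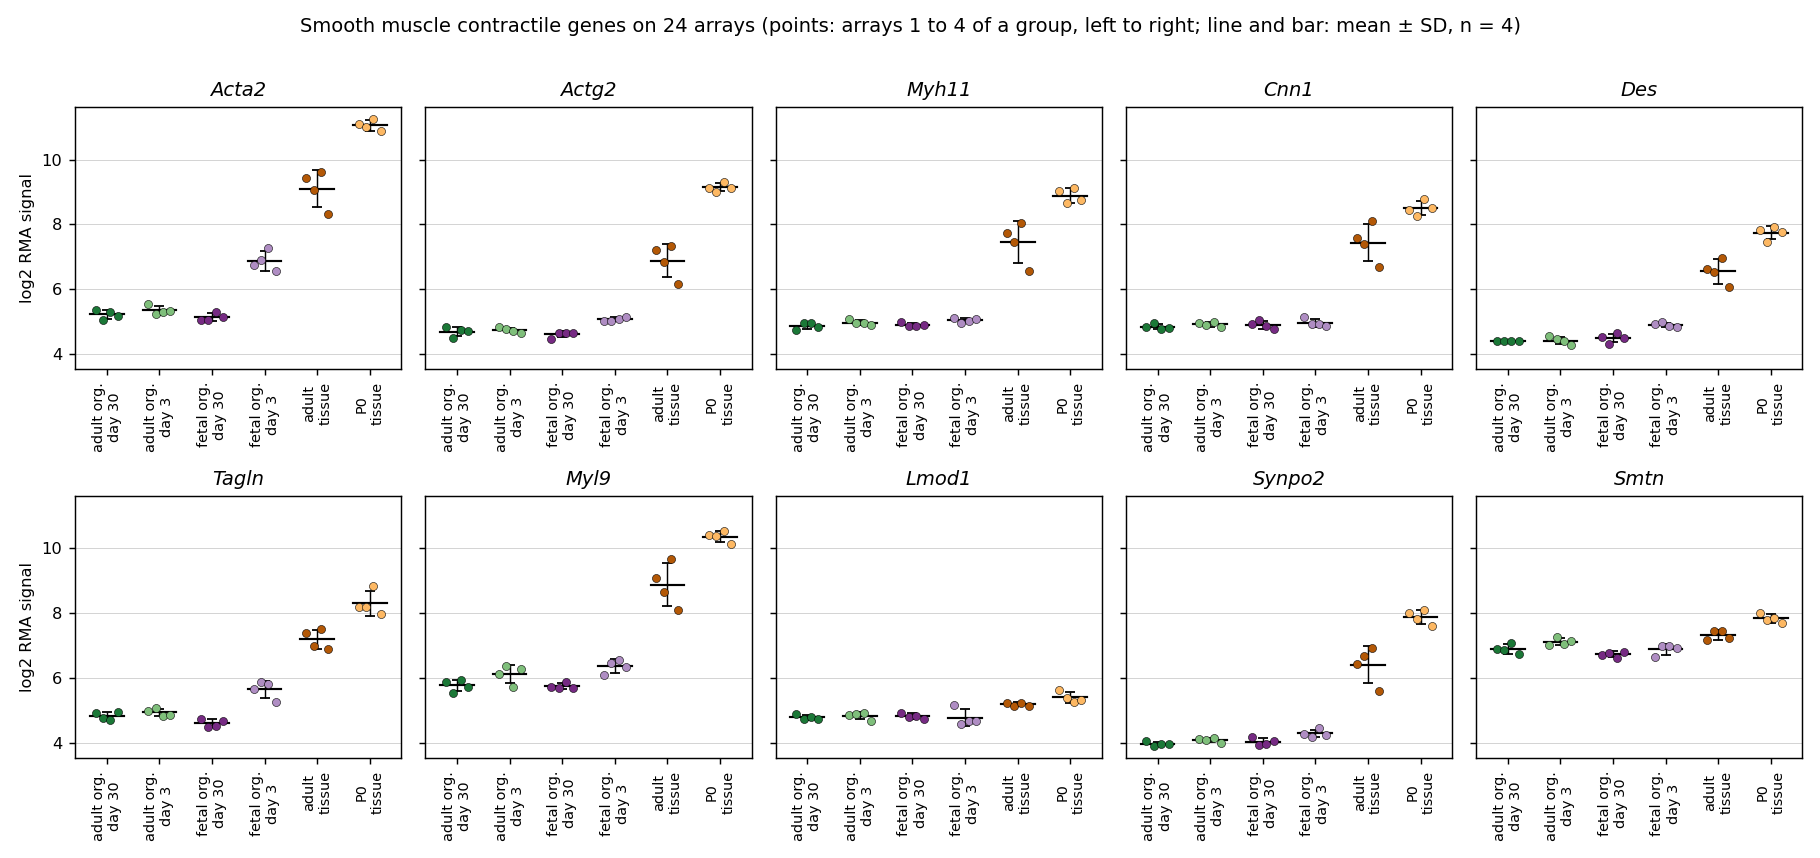
Log2 array signal of each of the 10 genes on the vertical axes, 1 panel per gene, for the 4 arrays of each of the 6 groups on the horizontal axes. Points are single arrays, horizontal lines are group means and bars are ± SD (n = 4). The P0 arrays lie above the adult tissue arrays in every panel, and among organoids the fetal day 3 arrays stand above the rest for Acta2 and Tagln.

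The motor proteins followed the same order. Myh11, the smooth muscle myosin heavy chain, measured 7.75, 7.46, 8.05 and 6.58 in adult intestine, against 9.04, 8.66, 9.12 and 8.75 in P0 intestine (difference -1.43 ± 0.18, adjusted p = 2.1e-06). Myl9, a regulatory light chain whose phosphorylation starts contraction, measured 9.09, 8.66, 9.68 and 8.10 in adult intestine, against 10.42, 10.37, 10.53 and 10.14 in P0 intestine (difference -1.48 ± 0.21, adjusted p = 9.4e-06). For both genes the highest adult array lay below the lowest P0 array.

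Of 4 genes for proteins that bind and organise actin, 3 were called lower. Cnn1, calponin 1, which binds actin and slows myosin, measured 7.57, 7.39, 8.10 and 6.70 in adult intestine, against 8.46, 8.26, 8.79 and 8.50 in P0 intestine (difference -1.06 ± 0.17, adjusted p = 5.4e-05). Tagln, transgelin or SM22, an actin-bundling protein of smooth muscle, measured 7.40, 6.98, 7.51 and 6.89 in adult intestine, against 8.20, 8.20, 8.85 and 7.98 in P0 intestine (difference -1.11 ± 0.16, adjusted p = 9.2e-06). Their groups did not overlap. Smtn, which encodes smoothelin, an actin-associated protein of contractile muscle, measured 7.17, 7.46, 7.44 and 7.25 in adult intestine, against 8.01, 7.78, 7.87 and 7.71 in P0 intestine (difference -0.52 ± 0.09, adjusted p = 0.00019). Lmod1, leiomodin 1, which starts new actin filaments in smooth muscle, measured 5.24, 5.15, 5.25 and 5.13 in adult intestine, against 5.65, 5.39, 5.27 and 5.33 in P0 intestine. Its difference of -0.22 ± 0.10 was not called (adjusted p = 0.13, 95% interval -0.43 to 0), although no array overlapped.

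Des and Synpo2 belong to the cytoskeleton around the contractile filaments. Des, desmin, the intermediate filament of muscle, measured 6.63, 6.54, 6.98 and 6.06 in adult intestine, against 7.84, 7.45, 7.92 and 7.78 in P0 intestine (difference -1.20 ± 0.13, adjusted p = 1.6e-07). Synpo2, which encodes myopodin, an actin-bundling protein of muscle dense bodies, measured 6.45, 6.67, 6.93 and 5.60 in adult intestine, against 8.02, 7.82, 8.10 and 7.61 in P0 intestine (difference -1.48 ± 0.17, adjusted p = 5.5e-07). Neither gene had an adult array that reached the lowest P0 array.

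Together 9 of the 10 genes were called lower in adult than in P0 intestine and none higher, against 12.2% of all genes called lower and 15% called higher. The groups did not overlap for all 10, against 13.3% of all genes in that direction. The median difference of the 10 genes was -1.31, and that of all genes was 0.08. Without adult tissue array 4 the same count of 9 was called, against 22.3% of all genes in either direction. The differences of all 10 genes then ran from -0.19 for Lmod1, again not called, to -2.02 for Actg2.

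Markers of other cell types of the gut wall also differed between the stages. Of the genes fixed as markers, 8 of 8 of endothelium, 5 of 7 of pericytes, 6 of 8 of fibroblasts and 4 of 7 of enteric neurons and glia were lower in adult intestine. Epithelium genes went the other way, with 8 of 10 higher and none lower in adult intestine, and their array means were 10.13 to 10.45 in adult and 9.56 to 9.68 in P0 intestine. Leukocyte genes were higher for 6 of 7 and lower for 1. Of 2 genes of interstitial cells of Cajal, neither was called. Their array means ran from 6.33 to 7.90 over the organoid groups and from 6.08 to 6.94 in whole intestine. These 2 genes are therefore not read as a measure of Cajal cells. The part of these cell types in the lower levels of the contractile genes was not tested.

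Genes that act beside the contractile genes were counted in the same way. Of 11 transcription factors of smooth muscle, 7 were lower and none higher (median -0.37), and Myocd, which encodes myocardin, averaged 4.58 in adult and 5.89 in P0 intestine (difference -1.31 ± 0.07, adjusted p = 2.3e-12). Its adult levels of 4.48, 4.56, 4.67 and 4.61 lay near the background of those arrays (4.61, 4.42, 4.40 and 4.18), below it on array 1. The size of the Myocd difference is limited by that background. Of 21 genes that control contraction, 12 were lower and none higher (median -0.47). Among them were Chrm2, a muscarinic receptor of gut muscle (-2.00, adjusted p = 3.8e-09), Cald1, caldesmon (-1.54, adjusted p = 1e-08), and Tpm2, a muscle tropomyosin (-1.12, adjusted p = 6.5e-08). Of 20 genes of dense bodies and attachment, 16 were lower and 1 was higher (median -0.83), and Pdlim3, which binds alpha-actinin, averaged 7.27 in adult and 8.84 in P0 intestine (-1.57 ± 0.12, adjusted p = 4.9e-10). Among 11 non-muscle relatives of the contractile genes, 5 were lower and 3 higher (median -0.32), and of 11 striated muscle genes 2 were lower and none higher (median -0.02).

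Most of the contractile genes were lower in organoids than in tissue of the same or nearest stage. In adult day 3 organoids against adult intestine, 9 of the 10 genes were called lower and none higher, against 13.5% of all genes lower and 21.9% higher. For the same 9 genes the groups did not overlap, against 13.2% of all genes in that direction. The median difference of the 10 genes was -2.28, and that of all genes was 0.02. Acta2 measured 5.56, 5.23, 5.31 and 5.32 in adult day 3 organoids, against the adult tissue values above, a 13.38-fold lower level (-3.74 ± 0.19, adjusted p = 5.9e-13). Myl9 measured 6.13, 6.38, 5.73 and 6.27 in adult day 3 organoids, a difference of -2.76 ± 0.21 (adjusted p = 4.8e-10). For both genes every organoid array lay below every adult tissue array.

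The next 6 genes had differences of -2.51 for Cnn1, -2.49 for Myh11, -2.32 for Synpo2, -2.25 for Tagln, -2.14 for Actg2 and -2.13 for Des, with adjusted p between 1.5e-11 and 3.2e-10. Synpo2 measured 4.13, 4.10, 4.16 and 3.99 in adult day 3 organoids, of which the last was not above background. Lmod1 measured 4.88, 4.91, 4.93 and 4.68 in adult day 3 organoids, and all lay below the adult tissue arrays. Its difference was -0.34 ± 0.10 (adjusted p = 0.011), a call that ended without adult day 3 array 4 (difference -0.28, adjusted p = 0.052). Smtn measured 7.03, 7.28, 7.06 and 7.14 in adult day 3 organoids and overlapped adult intestine. Its difference of -0.20 ± 0.09 was not called (adjusted p = 0.11, 95% interval -0.40 to -0.01).

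In fetal day 3 organoids against P0 intestine, all 10 genes were called lower, against 13.8% of all genes lower and 30.5% higher. For all 10 the groups did not overlap, against 12.1% of all genes in that direction. Acta2, at 6.75, 6.91, 7.27 and 6.56 in fetal day 3 organoids, was 18.12-fold lower (-4.18 ± 0.19, adjusted p = 1.8e-13). Actg2, at 5.03, 5.02, 5.09 and 5.16 in fetal day 3 organoids, was 16.78-fold lower (-4.07 ± 0.15, adjusted p = 9.4e-15). The median difference of the 10 genes was -3.56, against 0.14 for all genes.

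Without fetal day 3 arrays 2 and 3, Acta2 differed by -4.40 and all 10 genes were still called, against 37.4% of all genes in either direction.

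The difference between fetal day 3 organoids and P0 intestine was -3.99 for Myl9, -3.85 for Myh11, -3.59 for Synpo2, -3.53 for Cnn1, -2.84 for Des and -2.65 for Tagln, with adjusted p between 2.1e-13 and 1.8e-11. Smtn measured 6.65, 6.98, 6.98 and 6.93 in fetal day 3 organoids (-0.96 ± 0.09, adjusted p = 4.8e-08). Lmod1 measured 5.17, 4.59, 4.69 and 4.67 in fetal day 3 organoids (-0.63 ± 0.10, adjusted p = 4.2e-05). All 4 organoid arrays lay below all P0 arrays for both genes. These comparisons share day 3 arrays with those of culture time below and are not independent of them.

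The lists of accompanying genes were counted here as well. In adult day 3 organoids against adult intestine, 17 of 21 genes that control contraction were lower and 2 higher, 13 of 20 genes of dense bodies were lower and 2 higher, and 6 of 11 transcription factors were lower and 1 higher (medians -0.50, -0.62 and -0.24). Mylk, the kinase that phosphorylates the myosin light chain, averaged 6.40 in these organoids and 7.79 in adult intestine (-1.39 ± 0.10, adjusted p = 3.7e-10). In fetal day 3 organoids against P0 intestine the counts were 18 of 21 lower, 17 of 20 lower with 2 higher, and 7 of 11 lower with 1 higher (medians -0.78, -0.97 and -0.33), and without fetal day 3 arrays 2 and 3 they were 18 lower, 16 lower with 1 higher, and 7 lower with 1 higher. Pdlim3 averaged 4.61 in fetal day 3 organoids and 8.84 in P0 intestine (-4.23 ± 0.12, adjusted p = 6.4e-17). The non-muscle relatives were split, with 4 lower and 4 higher of 11 in adult organoids against adult intestine and 2 lower and 3 higher in fetal organoids against P0 intestine (2 lower and 2 higher without arrays 2 and 3). Epithelium genes showed no common direction in adult day 3 organoids against adult intestine, with 4 higher and 4 lower of 10, and 6 were higher and 1 lower in fetal day 3 organoids against P0 intestine (6 higher and 0 lower without arrays 2 and 3).

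Many markers of other cell types were lower in organoids as well. In adult day 3 organoids against adult intestine, 8 of 8 genes of fibroblasts, 8 of 8 of endothelium, 6 of 7 of pericytes, 6 of 7 of leukocytes and 2 of 7 of enteric neurons and glia were lower, and none of these was higher. In fetal day 3 organoids against P0 intestine, 8 of 8 genes of fibroblasts, 8 of 8 of endothelium and 6 of 7 of pericytes were lower, while leukocyte genes had 2 lower and 4 higher. Enteric neuron and glia genes had 4 lower and 1 higher of 7. Without arrays 2 and 3 the counts of fibroblasts, endothelium and pericytes were unchanged. Leukocyte genes then had 2 lower and 3 higher, and enteric neuron and glia genes 4 lower and 0 higher. The endothelium means ran from 4.25 to 4.42 in adult day 3 organoids and from 5.49 to 5.95 in adult intestine, and from 4.68 to 5.09 in fetal day 3 organoids and from 6.95 to 7.47 in P0 intestine. Of endothelium, Emcn was at or below background on all arrays of each organoid group. The part of these cells in the lower contractile genes was not tested.

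In organoids from fetal intestine, Acta2 and Tagln fell between day 3 and day 30 of culture. Acta2 measured 5.07, 5.06, 5.31 and 5.14 in fetal organoids at day 30, against 6.75, 6.91, 7.27 and 6.56 at day 3. Its difference was -1.73 ± 0.19 (3.32-fold lower, adjusted p = 1.1e-06). Tagln measured 4.75, 4.49, 4.53 and 4.67 at day 30, against 5.66, 5.87, 5.82 and 5.28 at day 3 (-1.05 ± 0.16, 2.07-fold lower, adjusted p = 7.2e-05). Every day 30 array lay below every day 3 array for both genes. Without fetal day 3 arrays 2 and 3 the differences were -1.51 for Acta2 (adjusted p = 0.00014) and -0.86 for Tagln (adjusted p = 0.0059).

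Actg2 and Des were called as well, closer to the threshold. Actg2 measured 4.47, 4.67, 4.67 and 4.66 at day 30, against 5.03, 5.02, 5.09 and 5.16 at day 3 (-0.46 ± 0.15, adjusted p = 0.047). Des measured 4.53, 4.33, 4.64 and 4.51 at day 30, against 4.92, 4.98, 4.88 and 4.85 at day 3 (-0.40 ± 0.13, adjusted p = 0.038). The groups did not overlap for either gene. Leaving out any 1 of the 8 arrays ended the Actg2 call (adjusted p between 0.069 and 0.12), and leaving out any of 6 arrays, fetal day 3 arrays 1, 2 and 3 and fetal day 30 arrays 1, 2 and 4, ended the Des call (adjusted p up to 0.11).

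Altogether 4 of the 10 genes were called lower at day 30 and none higher, against 8.76% of all genes lower and 6.77% higher. The groups of 6 genes did not overlap, against 9.13% of all genes in that direction, and the median difference was -0.33 for the 10 genes and -0.03 for all genes. Myl9 measured 5.74, 5.70, 5.88 and 5.71 at day 30, against 6.09, 6.48, 6.57 and 6.36 at day 3, and its difference of -0.61 ± 0.21 missed the threshold (adjusted p = 0.052). Synpo2 lay between 3.95 and 4.19 at day 30 and between 4.20 and 4.47 at day 3, with a difference of -0.26 that was not called (adjusted p = 0.36). None of its day 30 arrays was above background, while all 4 day 3 arrays were. That background was itself higher on the day 30 arrays (4.15 to 4.38) than on the day 3 arrays (3.84 to 4.04). No fall of Synpo2 is therefore shown. Without fetal day 3 arrays 2 and 3 the count was 2, for Acta2 and Tagln.

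Myh11, Cnn1, Lmod1 and Smtn were not called. Myh11 lay between 4.86 and 4.99 at day 30 and between 4.97 and 5.11 at day 3 (-0.14, adjusted p = 0.68, 95% interval -0.52 to 0.24). Cnn1 lay between 4.77 and 5.06 at day 30 and between 4.88 and 5.15 at day 3 (-0.07, adjusted p = 0.85, 95% interval -0.43 to 0.30). Lmod1 differed by 0.05 (adjusted p = 0.80) and Smtn by -0.14 (adjusted p = 0.36). These 4 genes had overlapping arrays.

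**Figure D2:**
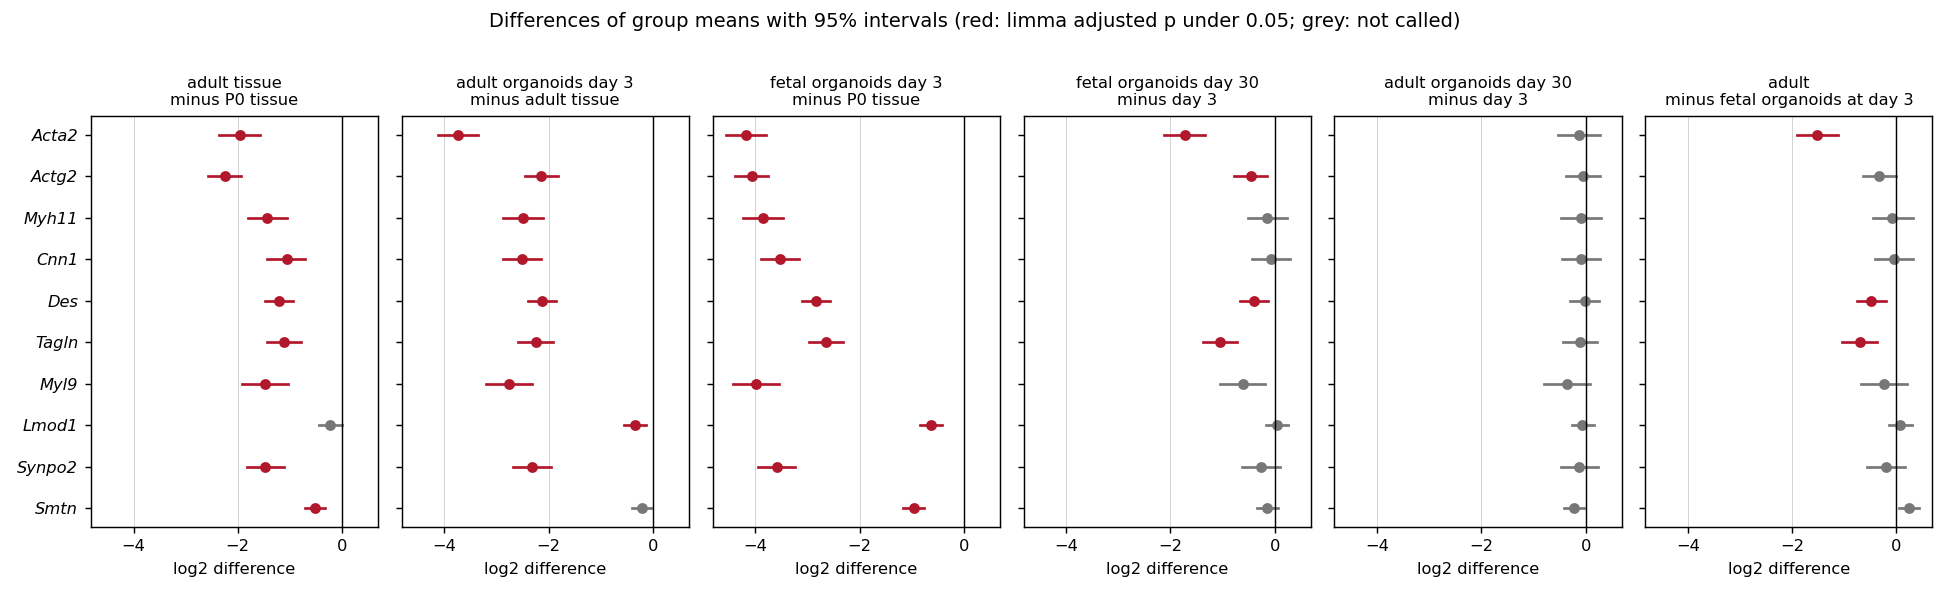
Log2 difference of each of the 10 genes in the comparisons named above the panels, with the 95% interval as a bar, in red where called and grey where not. A value below 0 is lower in the first group named. Acta2 (-1.73) and Tagln (-1.05) have the lowest values in fetal organoids at day 30 against day 3, and the intervals of Acta2 and Tagln in adult organoids include 0.

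In adult organoids none of the 10 genes was called between day 30 and day 3 by limma, against 0.0489% of all genes in either direction. Of the 10, 1 had an unadjusted p under 0.05, Smtn (difference -0.23, adjusted p = 0.50), against 2581 of 30702 genes. Acta2 measured 5.36, 5.06, 5.30 and 5.19 at day 30, against 5.56, 5.23, 5.31 and 5.32 at day 3. Tagln measured 4.92, 4.77, 4.71 and 4.95 at day 30, against 5.0, 5.08, 4.84 and 4.88 at day 3. The arrays of both days overlapped for all 10 genes, while 5.34% of all genes had groups that did not overlap in either direction.

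The 95% interval of the Acta2 difference in adult organoids was -0.52 to 0.27, and that of Tagln was -0.44 to 0.22. The test of the difference between the 2 culture changes was called for 2 genes, against 1.97% of all genes called lower and 1.02% called higher. The change of fetal organoids minus that of adult organoids was -1.60 ± 0.27 for Acta2 (adjusted p = 0.00091) and -0.94 ± 0.23 for Tagln (adjusted p = 0.020). The Tagln call ended without fetal day 3 array 2 (difference -0.87, adjusted p = 0.052) and with each array centred on its median (difference -0.87, adjusted p = 0.061). Without fetal day 3 arrays 2 and 3 the values were -1.39 for Acta2 (adjusted p = 0.011) and -0.75 for Tagln (adjusted p = 0.15).

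Between adult and fetal organoids 3 of the 10 genes were called at day 3, against 24.6% of all genes in either direction, and none at day 30. Adult minus fetal organoids at day 3 gave -1.52 ± 0.19 for Acta2 (adjusted p = 3.8e-06), -0.71 ± 0.16 for Tagln (adjusted p = 0.0019) and -0.48 ± 0.13 for Des (adjusted p = 0.0082). Of all genes 10.1% were called lower and 14.5% higher there. The groups did not overlap for 6 genes, these 3, Actg2 and Synpo2, lower in adult organoids, and Smtn, higher there (0.24 ± 0.09, adjusted p = 0.067), against 24.1% of all genes in either direction. At day 30 no gene of the 10 was called by limma. Of all genes 8.97% were called there in either direction (5.895% without adult day 30 array 1). Of the 10, 0 had an unadjusted p under 0.05 at day 30, against 6186 of 30702 genes. The differences of the 10 genes lay between -0.10 and 0.23. The groups of all 10 overlapped, while those of 12.3% of all genes did not. Whether the difference between adult and fetal organoids changed from day 3 to day 30 is the test of the culture changes above. Without fetal day 3 arrays 2 and 3, Acta2 alone was called at day 3 (-1.30, adjusted p = 0.00042), against 17.1% of all genes in either direction. Of other cell markers, 5 of 8 genes of fibroblasts, 6 of 8 of endothelium and 3 of 7 of pericytes were lower in adult than in fetal organoids at day 3. These counts were 2, 5 and 2 without fetal day 3 arrays 2 and 3. Enteric neuron and glia genes had 3 lower of 7 (2 without these arrays). Leukocyte genes had 2 lower and 2 higher (2 and 1 without them), and epithelium genes 1 lower and 1 higher. Of 11 non-muscle relatives, 9 were lower and 1 higher (5 and 1 without these arrays). The part of these genes was not tested.

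Over all groups, P0 intestine stood above adult intestine for all 10 genes with no overlap. Fetal day 3 organoids came next by mean for 8 of the 10 genes, all but Lmod1 and Smtn. On the 12 arrays of the other organoid groups, Acta2 ranged from 5.06 to 5.56, Actg2 from 4.47 to 4.83, Des from 4.27 to 4.64 and Tagln from 4.49 to 5.08. Myh11 ranged from 4.76 to 5.08, Cnn1 from 4.77 to 5.06, Lmod1 from 4.68 to 4.94, Synpo2 from 3.90 to 4.19, Myl9 from 5.55 to 6.38 and Smtn from 6.63 to 7.28 on these arrays. Ordering the organoid groups by mean gave 30 neighbouring pairs over the 10 genes, and 25 of them overlapped. The 5 that did not had fetal day 3 organoids on top, for Acta2, Actg2, Des, Tagln and Synpo2. Organoids reached into the range of adult intestine for 2 genes: Smtn, in adult day 3 organoids, and Lmod1, on fetal day 3 array 1 alone (5.17).

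Genes of the lists around the contractile apparatus were also called between day 30 and day 3 in fetal organoids. Of 20 genes of dense bodies and attachment, 10 were lower at day 30 and none higher (median -0.28), and of 21 genes that control contraction 8 were lower and 2 higher (median -0.20). Cald1 averaged 4.98 at day 30 and 6.47 at day 3 (-1.49 ± 0.14, adjusted p = 1.4e-07), and Tpm2 averaged 5.90 at day 30 and 6.76 at day 3 (-0.87 ± 0.11, adjusted p = 1.4e-05). Chrm3, a muscarinic receptor, was higher at day 30 (0.67 ± 0.13, adjusted p = 0.00077). Of 11 transcription factors 5 were lower and 1 higher (median -0.26), and the higher one was Mrtfb, a myocardin-related coactivator of serum response factor (0.57 ± 0.11, adjusted p = 0.00057). With fetal day 3 arrays 2 and 3 left out, 9 genes of dense bodies were lower, 6 genes that control contraction were lower and 1 higher, and 2 transcription factors were lower and 1 higher. Cald1 then differed by -1.19 (adjusted p = 5.5e-06), Tpm2 by -0.79 (adjusted p = 0.0013), Chrm3 by 0.65 (adjusted p = 0.01) and Mrtfb by 0.65 (adjusted p = 0.0028).

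Of the non-muscle relatives, 9 of 11 were lower at day 30 and 1 higher (median -0.44). Cnn2, the calponin of non-muscle cells, averaged 6.28 at day 30 and 7.62 at day 3 (-1.33 ± 0.15, adjusted p = 2.1e-06). Myh10, a non-muscle myosin, differed by -0.94 (adjusted p = 2.5e-06) and Tagln2, a transgelin found widely outside muscle, by -0.76 (adjusted p = 2e-05). In the difference between the culture changes, 5 of 11 of these relatives were called lower, and 1 without fetal day 3 arrays 2 and 3. Without these arrays 8 relatives were lower at day 30 and 1 higher, and the differences were -1.13 for Cnn2 (adjusted p = 0.00029), -0.67 for Myh10 (adjusted p = 6.4e-05) and -0.54 for Tagln2 (adjusted p = 0.0016). Markers of other cells changed too, as 6 of 8 genes of fibroblasts, 6 of 8 of endothelium, 4 of 7 of pericytes, 3 of 7 of leukocytes and 2 of 7 of enteric neurons and glia were lower at day 30, and none of them higher. Striated muscle genes were lower for 2 of 11. Epithelium genes were higher for 2 of 10 and lower for 1. Of the 2 genes listed for interstitial cells of Cajal, which do not measure these cells here, 1 was higher and 1 lower. On leaving out fetal day 3 arrays 2 and 3, the genes lower at day 30 were 4 of fibroblasts, 6 of endothelium, 2 of pericytes, 3 of leukocytes, 2 of enteric neurons and glia, 1 of striated muscle and 0 of Cajal cells, and of epithelium 1 was higher and 0 lower. The part of these cell types in the fall of Acta2 and Tagln was not tested.

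Fibroblast genes and contractile genes were set side by side on single arrays. On adult day 3 array 1 all 8 measured fibroblast genes had their highest level of the group, by 0.53 to 4.56 above the mean of the other 3 arrays (median 2.15). The 10 contractile genes differed there by -0.12 to 0.27 (median 0.07), and 4 were highest on that array. Dcn, decorin, measured 8.88 on array 1, against 4.15, 4.08 and 4.73 on arrays 2, 3 and 4, while Acta2 on array 1 was 5.56. The fibroblast mean there was 6.66, as on adult tissue array 1 with 6.68, where Acta2 was 9.42.

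**Figure D3:**
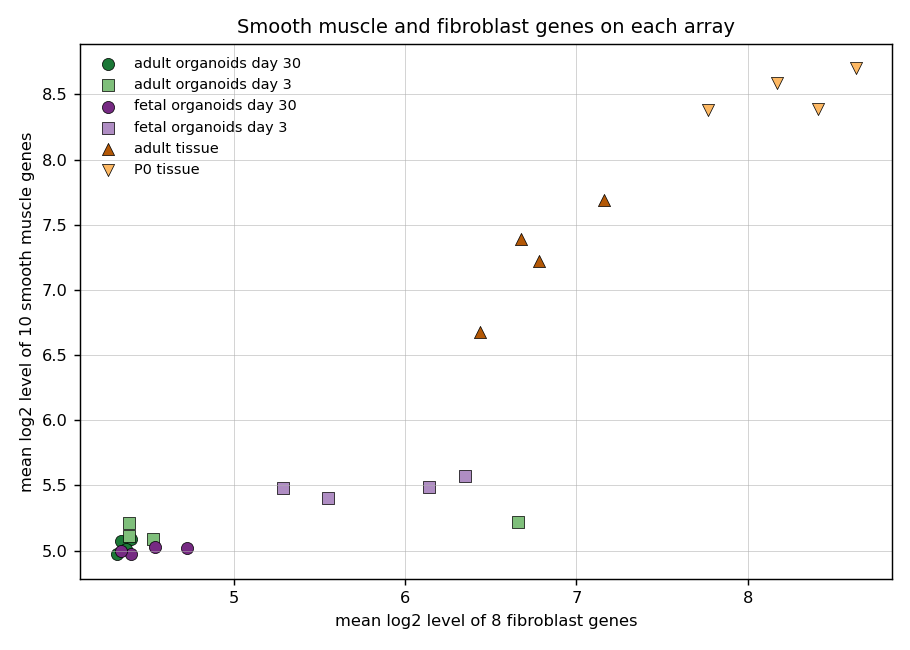
Mean log2 signal of the 10 contractile genes on the vertical axis against that of 8 fibroblast genes on the horizontal axis, 1 point per array, with colour and shape by group. Adult organoid day 3 array 1 has a fibroblast mean of 6.66 and a contractile mean of 5.22, while the adult tissue arrays reach contractile means of 6.68 to 7.69.

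In fetal day 3 organoids the fibroblast means were 5.29, 6.14, 6.35 and 5.55, and the contractile means were 5.48, 5.49, 5.57 and 5.40. Dcn measured 6.01, 7.42, 7.18 and 6.19 in fetal day 3 organoids, and Dpt, dermatopontin, between 4.28 and 4.57 there. The arrays with the higher fibroblast means, 2 and 3, were also the arrays with the highest Acta2 levels of the group, with 6.91 on array 2 and 7.27 on array 3. Tagln, Myl9 and Smtn were highest on these arrays too. Myh11 was lowest on them, with 4.97 and 5.01 against 5.11 and 5.09 on arrays 1 and 4. The remaining genes followed neither order, and a link between fibroblast and contractile genes was not tested.

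Within the tissue groups most of the contractile genes varied together from array to array. Array 3 was the highest of its group for 9 of the 10 genes in adult intestine and for 8 in P0 intestine, and array 4 of adult intestine was lowest for 9. The mean deviation of the 10 genes ran from -0.57 to 0.44 in adult intestine and from -0.14 to 0.19 in P0 intestine. The adult arrays therefore weigh more in the r values of deviations below. As a description over the 8 tissue arrays, the deviations of gene pairs from their group means had a median Pearson r of 0.735 over 45 pairs. Lmod1 and Smtn followed the mean of the other genes least there (r = 0.258 and 0.382). Leaving out these genes raises the median by the choice itself, to 0.914 over 28 pairs, with a range of 0.626 to 0.983. In the 16 organoid arrays the median over 45 pairs was 0.082, and 0.119 over 28 pairs without Lmod1 and Smtn. These points share an array's RNA, normalization and labelling, so the r values describe common variation of an array.

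**Figure D4:**
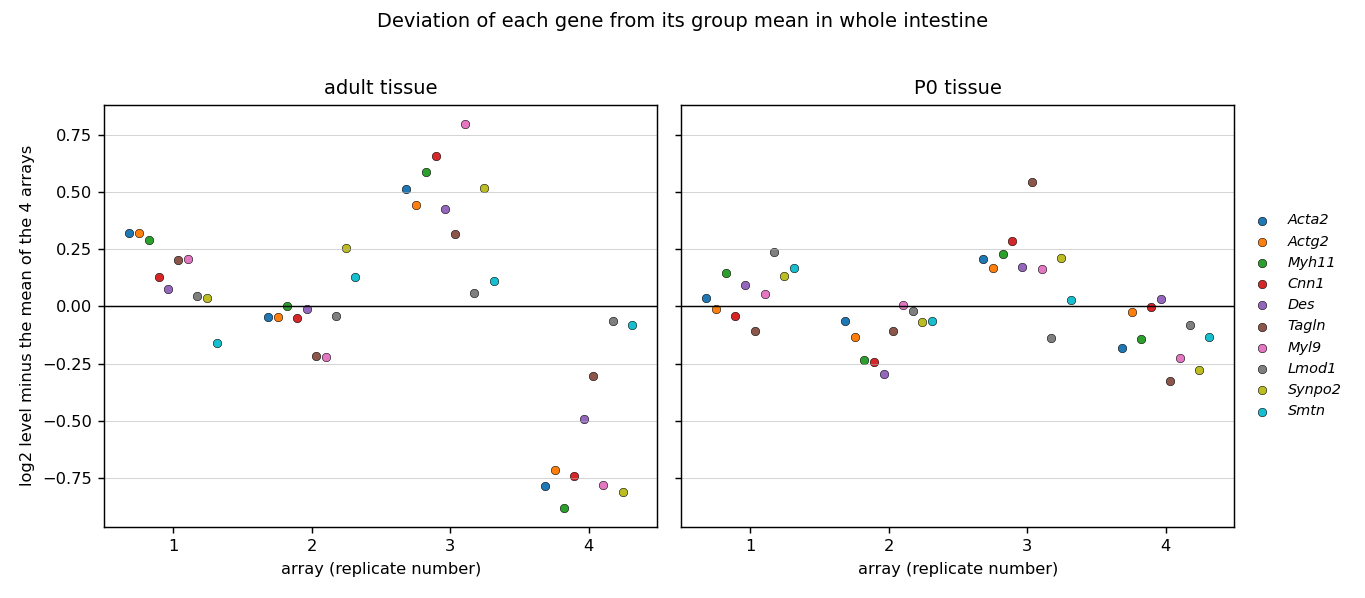
Deviation of each contractile gene from its group mean, in log2 units on the vertical axis, on the 4 arrays of adult and of P0 intestine. Each point is 1 gene on 1 array, coloured by gene. Adult tissue array 4 is the lowest for 9 of the 10 genes.

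Likeness to the contractile genes was ranked among 11531 other genes by level and 10469 by deviation. Genes with a spread below the median of all genes and genes with provisional names were left out. Those whose levels over the 24 arrays were most like the mean of the contractile genes were Pdlim3 (r = 0.993), Fendrr (0.989), Pde1a (0.987), Ptprb (0.987), Aoc3 (0.986), Emcn (0.986), Flt1 (0.986) and Carmn (0.986). The 24 arrays include tissue and organoids, between which these levels differ. By deviations from the group means instead, the closest were Tns1 (r = 0.898), Abcc9 (0.85), Rgs5 (0.844), Synm (0.84), Abca1 (0.836), Pdlim3 (0.794), Chrm2 (0.787) and Pgm5 (0.779). Pdlim3 was the gene in both rankings. Of the genes named, Emcn was on the list of endothelium, and Abcc9 and Rgs5 were on that of pericytes. Pdlim3, Synm and Pgm5 were on the list of dense bodies and attachment, and Chrm2 on that of control of contraction.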

How the data were processed

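Organoid and tissue RNA was read on 24 Affymetrix arrays of 1 colour. The deposited log2 signals were made by the authors with Affymetrix Expression Console and RMA, per the submitters' processing notes; RMA corrects background, normalizes between arrays and summarises probes. Tool versions and the build are not stated in what was used here. The table held 72688 probe sets, of which 31258 transcript clusters named 1 gene and 30702 genes resulted, each with its cluster of highest mean. Group means of all 24 arrays were fitted in 1 model with limma 3.58.1 in R 4.3.3 (18 residual and 4.25 prior degrees of freedom), with Benjamini-Hochberg adjustment over 30702 genes. The rest ran in Python 3.11.15 (pandas 2.3.3, numpy 2.4.6, scipy 1.17.1, matplotlib 3.10.9). The fit was tested on simulated data. The contractile genes, the lists of other genes and the alternatives were chosen with earlier results of these data known. Besides the 10 contractile genes, the text names the 8 genes most like them by level and the 8 by deviation, and members of the lists among the 4 with the smallest adjusted p. Dcn and Dpt were chosen after their values were seen. No replicate block was used, since the labels state no pairing by replicate number. Deviations from group means were correlated between arrays of the same number. In none of 15 pairs of groups did every number correlate above 0.1 (r between -0.306 and 0.296). With 4 arrays a group, such correlations cannot exclude a pairing. No genome and no protein sequences were used here.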

Additional observations from a re-analysis of the deposited data

Results flagged for a closer look

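In 60 groups of 4 arrays tested for a lone array by Dixon's 95% rule, 3 were picked out, and chance alone would pick about 1 in 20. Actg2 measured 4.47 on fetal organoid day 30 array 1, against 4.66 to 4.67 on the other 3 arrays. Lmod1 measured 5.17 on fetal organoid day 3 array 1, against 4.59 to 4.69 on the other 3 arrays. Smtn measured 6.65 on fetal organoid day 3 array 1, against 6.93 to 6.98 on the other 3 arrays.

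The culture change differed between fetal and adult organoids for Acta2, by -1.60, and for Tagln, by -0.94, each by limma's test of the difference itself.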

How the results depend on the processing

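Of the 10 genes, the count called lower at day 30 in fetal organoids was 4, and 2 with arrays centred on their median, with a second quantile normalization, at an adjusted p under 0.01 and without fetal day 3 arrays 2 and 3; with single arrays left out it was 2 to 3. The count for the difference of culture changes was 2, and 1 with centred arrays, at an adjusted p under 0.01 and without those arrays, and 1 to 2 with single arrays left out. The count between adult and fetal organoids at day 3 was 3, and 1 without those arrays, and in a fit of the compared groups alone Actg2 was called there (-0.33, adjusted p = 0.014). Myl9 was called at day 30 against day 3 in fetal organoids with a filter on low values (adjusted p = 0.037), in a fit of the compared groups alone (0.0097), with array weights (0.045) and without fetal day 3 array 1 (0.04). Lmod1 was called between adult and P0 intestine with centring (-0.29), a second quantile normalization (-0.30) and array weights (-0.21), and Smtn between adult day 3 organoids and adult intestine with the second quantile normalization (-0.36) and weights (-0.27). Signs turned in values that were called under neither setting. With centring they were Cnn1 at day 30 against day 3 in fetal organoids (0.02), Des in adult organoids (0.002), Myh11 in the difference of culture changes (0.02) and Myl9 between adult and fetal organoids at day 30 (-0.005). With the second quantile normalization the same genes gave 0.02, 0.003, 0.02 and -0.02, and with array weights Myl9 gave -0.01. Without fetal day 3 arrays 2 and 3, Lmod1 turned to -0.09 in fetal organoids, to -0.03 in the difference of culture changes and to -0.07 between adult and fetal organoids at day 3, and Cnn1 to -0.03 in the difference of culture changes. With single arrays left out, such values ranged from -0.08 to 0.01 for Cnn1 between adult and fetal organoids at day 3, from -0.03 to 0.08 for Cnn1 in the difference of culture changes and from -0.01 to 0.18 for Lmod1 in fetal organoids. At day 30 they ranged from -0.07 to 0.0004 for Lmod1, from -0.04 to 0.09 for Myl9 and from -0.06 to 0.005 for Myh11, and in adult organoids from -0.07 to 0.02 for Des and from -0.09 to 0.01 for Actg2. The cause was not tested. With a replicate block, the counts of the contractile genes were 9, 4, 0, 2, 3, 0, 9 and 10 in the 8 comparisons, as without it. Whether the numbers pair the arrays is not known from the labels. Counts over all genes moved over 1.5 times for adult organoids at day 30 against day 3 (15 genes, and 1 to 372 under the alternatives). For fetal organoids the count was 4770, and 2723 at an adjusted p under 0.01, 2502 in a fit of the compared groups alone and 3077 without fetal day 3 arrays 2 and 3. For the difference of culture changes it was 918, and 422 at 0.01, 1401 with array weights and 563 without those arrays. Between adult and fetal organoids it was 7543 at day 3, and 4806 at 0.01, and 2754 at day 30, and 1289 at 0.01, 1614 with the compared groups alone and 1810 without adult day 30 array 1. For adult against P0 intestine it was 8331, and 5377 at 0.01 and 5006 without P0 arrays 2 and 3, and for fetal day 3 organoids against P0 intestine 13603, and 9026 at 0.01 and 8919 without those P0 arrays. Counts of list genes without fetal day 3 arrays 2 and 3, without adult day 3 array 1 and without adult tissue array 4 were added after seeing the data. Without adult day 3 array 1, the genes lower in the difference of culture changes moved from 1 to 6 of 8 for fibroblasts, from 5 to 7 of 11 for non-muscle relatives and from 2 to 1 of 7 for pericytes. Without adult tissue array 4, the genes lower in adult than in P0 intestine moved from 12 to 10 of 21 for control of contraction and from 16 to 15 of 20 for dense bodies. Levels near the negative controls limit what can be seen in organoids, most of all for Synpo2.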
